A study of Rattus norvegicus with 18 samples.

Results

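The experiment asked which effects of MEF2 activation in rat neurons depend on the time after ligand. It used 12 of the 18 arrays in the series: those hybridised with RNA from neurons given 4-hydroxytamoxifen (4OHT) for 1 h or 2.5 h, chosen by their labels and not by any measured value. Hippocampal neurons were grown in dissociated culture and infected with a lentivirus on day 3, and 4OHT was added on day 10. The virus carried either MEF2-VP16-ER or, as control, MEF2deltaDBD-VP16-ER. The labels give 4 groups of 3 biological replicates, with control or MEF2-VP16-ER neurons at 1 h or 2.5 h, and every group had received virus and 4OHT. Another 6 arrays, 3 for each construct at 0 h, served only to give the level before ligand. The promoter of the constructs, the animals behind a culture and the share of cells infected are not given in the sources used here. What separated the replicates is not given either, so p values measure the spread between these arrays, part of which may be technical.

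MEF2 proteins are MADS-box transcription factors that bind AT-rich sites in DNA and are best known from muscle differentiation and from the response of neurons to activity, where calcium signals release them from class IIa histone deacetylases. In the fusion protein, MEF2 is joined to the strong activation domain of the viral protein VP16 and to the ligand-binding domain of the estrogen receptor, which keeps such a fusion inactive until 4OHT binds it. The control protein is the same kind of fusion, named for a deletion of the DNA-binding domain. Genes that a factor switches on directly can respond quickly, whereas long genes and genes that need a newly made protein respond later.

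The measure was the late minus early induction: the change from 1 h to 2.5 h in MEF2-VP16-ER neurons minus the same change in control neurons, as log2(intensity + 16). A value of 1 is a 2-fold larger rise, and the scale understates changes of dim genes. Replicate number was a block in the fit. A probe set is said to have risen late or fallen late where limma's p, adjusted by Benjamini-Hochberg for 31042 probe sets, was below 0.05, and other values are given without such a verb. The 12 arrays had medians between 190.4 and 196.3. The ratio of 3′ to 5′ signal, a sign of RNA integrity, was 1.84 to 2.77 for beta-actin and 1.04 to 1.28 for Gapdh. It was 1.90 to 2.77 for beta-actin at 1 h and 2.22 to 2.51 at 2.5 h in MEF2-VP16-ER neurons, and 1.84 to 2.66 and 2.34 to 2.61 in control neurons, so the ranges overlapped. All 6 neuron markers lay above the median intensity of the arrays, as did 5 of 6 astrocyte and 4 of 5 measured oligodendrocyte markers, against 2 of 7 microglia, 1 of 5 fibroblast and 0 of 4 measured endothelial markers. Transcripts of astrocytes and oligodendrocytes were thus measured beside those of neurons.

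Between 1 h and 2.5 h the effect of MEF2-VP16-ER grew at 39 probe sets, 0.126% of the 31042 tested, and became more negative at 7, which is 0.0226%. The 39 named 26 genes and the 7 named 4, while 11 and 3 of these probe sets had no single gene symbol. The rises lay between 0.49 and 1.80 log2 units with a median of 0.79, and the falls between -1.03 and -0.54. Genes of cell-to-cell recognition (Sema6a, Cdh10, Epha3, Lrrc4c), regulators of transcription and RNA (Mitf, Ppargc1a, Nr4a3, Cpeb3, Elavl2) and the secreted or matrix proteins Col10a1 and Fgl2 were among the rises. Gse1, Nin, Runx1t1 and Irf2bpl fell late.

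MEF2-VP16-ER neurons, rather than controls, supplied most of the change. At 37 of the 39 late rises the larger movement was a rise in MEF2-VP16-ER neurons, at the other two, Hs3st1 and Nr4a3, it was a decrease in control neurons, and at all 7 late falls it was a fall with MEF2-VP16-ER. The median change from 1 h to 2.5 h over the 39 probe sets was 0.68 with MEF2-VP16-ER and -0.089 in controls, against 0.0090 and -0.0083 over all probe sets. The arrays at 1 h and 2.5 h did not overlap at 37 of the 39 and at all 7 of the falls with MEF2-VP16-ER, as at 9.73% of all probe sets. In controls they did not overlap at 4 of the 39, where 2.5 h was lower, and at none of the 7, as at 5.08% of all probe sets. These probe sets were picked on the same arrays, so the separation describes them and is no further support. Within MEF2-VP16-ER neurons alone limma called 239 probe sets between the times (0.77%), 159 higher (0.512%) and 80 lower (0.258%). Within control neurons it called 0 (0%), with 1368 at unadjusted p under 0.05.

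**Figure D1:**
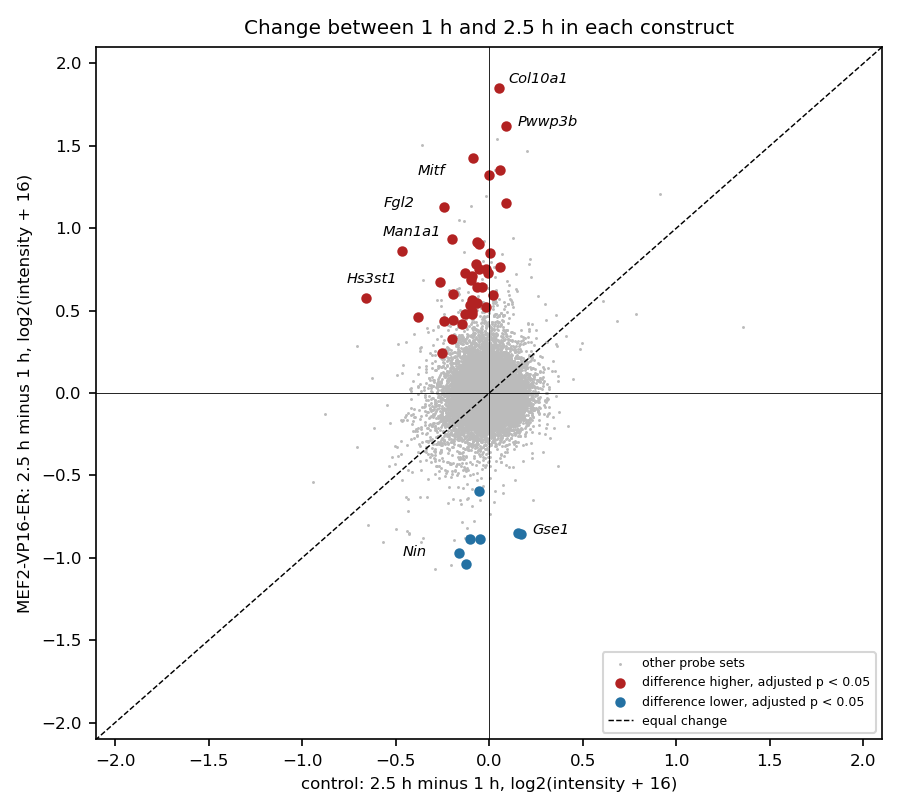
Change from 1 h to 2.5 h of 4OHT in control neurons (x axis) and in MEF2-VP16-ER neurons (y axis), both as log2(intensity + 16), for 31042 probe sets. Each point is a probe set, and the dashed line marks an equal change in both. The 39 late rises (red) lie above the line and mostly near 0 on the x axis, and the 7 late falls (blue) lie below it.

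The 39 rises were for the most part not seen at 1 h. Relative to the 0 h arrays and beyond control neurons, in a fit of all 18 arrays with the same block, their median induction was -0.032 at 1 h and 0.72 at 2.5 h. Over all probe sets the medians were -0.020 at 1 h and 0.0037 at 2.5 h. At 31 of the 39 the value at 1 h was under 0.25 in size, at 4 it was 0.5 or more, and 1 of the 39 passed at 1 h. The shares of all probe sets under 0.25 in size and at 0.5 or more were not counted. The 31 and the 4 thus do not set these probe sets apart from the rest. These inductions share the 1 h and 2.5 h arrays with the comparison that picked the probe sets, so they are a description. For the 7 falls the medians were -0.26 and -1.07. At 6 of the 7 the value at 1 h was below 0, as was the median over all probe sets, and 0 of the 7 passed at 1 h. Over all probe sets limma called 9 inductions at 1 h (0.029%), 8 of them higher (0.0258%), and 291 at 2.5 h (0.937%), 175 higher (0.564%) and 116 lower (0.374%).

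Upstream sequences are shown for the genes with the largest late changes, because the factor under study binds DNA and these genes moved together in time. They are the 250 bases before the RefSeq gene start on the gene's own strand, in build GRCr8, for Col10a1 (chr20:39737286-39737535, plus strand) and Pwwp3b (chrX:107623169-107623418, plus strand), which rose late, and for Gse1 (chr19:65494410-65494659, plus strand) and Nin (chr6:94363611-94363860, minus strand), which fell late. Capitals mark the letters TATAAA, and no MEF2 consensus, CArG box, TGACGTCA or TATAAA lay in the windows shown without capitals.
Col10a1: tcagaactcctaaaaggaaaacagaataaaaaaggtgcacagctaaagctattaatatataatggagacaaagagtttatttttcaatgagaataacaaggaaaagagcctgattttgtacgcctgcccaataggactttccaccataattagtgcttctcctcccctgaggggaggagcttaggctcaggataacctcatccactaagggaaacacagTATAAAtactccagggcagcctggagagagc
Pwwp3b: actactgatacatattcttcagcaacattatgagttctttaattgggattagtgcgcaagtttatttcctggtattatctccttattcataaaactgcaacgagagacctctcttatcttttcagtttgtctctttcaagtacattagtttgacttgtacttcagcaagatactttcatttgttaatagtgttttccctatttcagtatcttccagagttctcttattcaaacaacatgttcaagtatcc
Gse1: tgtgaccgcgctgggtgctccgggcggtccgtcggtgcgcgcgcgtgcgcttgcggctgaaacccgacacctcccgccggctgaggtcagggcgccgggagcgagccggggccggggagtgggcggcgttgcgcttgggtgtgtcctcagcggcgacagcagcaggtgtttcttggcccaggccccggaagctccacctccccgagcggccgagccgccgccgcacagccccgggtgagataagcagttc
Nin: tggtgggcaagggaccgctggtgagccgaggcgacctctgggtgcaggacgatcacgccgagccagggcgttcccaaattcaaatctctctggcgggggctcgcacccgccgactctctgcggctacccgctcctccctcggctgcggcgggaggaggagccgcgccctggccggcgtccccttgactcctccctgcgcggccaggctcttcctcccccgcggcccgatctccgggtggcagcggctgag
Of these windows the rises had 41.6% and 33.2% G and C, and the falls 74.0% and 72.4%. Over all late rises the 24 windows had a median of 57.4% and a range of 33.2% to 78.0%, against 51.2% for all 33469 windows and 72.4% for the 3 of the falls that had an entry.

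The search used both strands of 300 bases, from 250 before to 50 after the start. Of 26 genes that rose late, 24 had an entry, and the MEF2 consensus was found in 0 of them, against 3.29% of all windows. The CArG box, the site of the related factor SRF, was also found in 0 (1.64% of all), and TATAAA in 4, or 16.7% (14.2% of all). With shares of 3.29% and 1.64%, a count of 0 in 24 windows does not set the late rises apart from all windows. The cyclic AMP response element TGACGTCA, which contains the shorter TGACG, was found in 2 of 24, or 8.33%, and in 1 of the 3 falls with an entry, against 1.83% of all windows. Counting those 2, the shorter TGACG was found in 5 of 24, or 20.8%, against 21.2%. These are matches of letters in a short window and not shown to be sites. The TGACGTCA counts rest on 2 genes and 1 gene, with 5 motifs searched. They are too small to set these genes apart from all windows, and no test was made. The 3 genes with TGACGTCA were picked for display after the search and are Mlf1 (chr2:153958465-153958524, plus strand), Ppargc1a (chr14:63634101-63634160, plus strand) and Irf2bpl (chr6:112262275-112262334, minus strand), shown as 60 bases with that element in capitals.
Mlf1: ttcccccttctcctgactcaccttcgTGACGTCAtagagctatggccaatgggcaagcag
Ppargc1a: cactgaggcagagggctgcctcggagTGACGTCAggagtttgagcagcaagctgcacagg
Irf2bpl: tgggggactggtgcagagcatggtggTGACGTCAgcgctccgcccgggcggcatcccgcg

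The 4 genes with an induction of 0.5 or more at 1 h were Col10a1, Pwwp3b, Fgl2 and Hs3st1, and in each it then grew. At 1 h only the induction of Hs3st1 passed. By limma the adjusted p at 1 h was 0.568 for Col10a1, 0.218 for Pwwp3b and 0.311 for Fgl2. Col10a1, which encodes the collagen of hypertrophic cartilage, had the largest late rise. Its intensity was 112, 79.3 and 116 at 1 h and 539, 264 and 473 at 2.5 h on the MEF2-VP16-ER arrays of replicates 1 to 3, against 63.6, 60.1 and 58.5 and 64.4, 68.4 and 58.2 on the control arrays. Only the MEF2-VP16-ER arrays at 2.5 h stood far above the rest, and the control arrays lay together at both times. The late minus early value was 1.80 ± 0.25 (SE, with 3 arrays a group, a 3.47-fold larger change, adjusted p = 0.0231), with 2.09, 1.40 and 1.89 in replicates 1, 2 and 3. Over 0 h its induction was 0.60 ± 0.23 at 1 h and 2.39 ± 0.23 at 2.5 h. With single arrays left out the call held in 4 of 12 fits, with the highest adjusted p = 0.110 without control 1 h replicate 2, while the value stayed between 1.63 and 2.06.

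Pwwp3b, named for a PWWP domain, gave 217, 178 and 159.9 at 1 h and 761, 538 and 523 at 2.5 h on the MEF2-VP16-ER arrays of replicates 1 to 3, against 128, 98.4 and 61 and 105, 97.3 and 96.2 on the control arrays. The MEF2-VP16-ER groups were apart from each other and from controls at both times. Its late minus early value was 1.53 ± 0.17, adjusted p = 0.0083, and its induction was 0.76 ± 0.16 at 1 h and 2.29 ± 0.16 at 2.5 h. Fgl2 encodes a fibrinogen-like protein with roles in coagulation and immune regulation, and its intensity was 498, 234 and 163 at 1 h and 868, 573 and 447 at 2.5 h on the MEF2-VP16-ER arrays of replicates 1 to 3, against 211, 151 and 105 and 177, 117 and 92.2 on the control arrays. Replicate 1 was high throughout, so that its 1 h array lay above the 2.5 h array of replicate 3, and the groups overlapped although every replicate rose. The value was 1.37 ± 0.16, adjusted p = 0.00937, with 1.02, 1.57 and 1.54 in the 3 replicates. Of 4 Fgl2 probe sets the others were at 1.86, 0.74 and 0.19 and did not pass.

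Hs3st1, a sulfotransferase that modifies heparan sulfate, was already high at 1 h. Its intensity was 1209, 905 and 1010 at 1 h and 1576, 1449 and 1642 at 2.5 h on the MEF2-VP16-ER arrays of replicates 1 to 3, against 485, 416 and 424 and 323, 281 and 223 on the control arrays. The MEF2-VP16-ER arrays rose and the control arrays were lower at 2.5 h, with no overlap between the times in either construct. The difference of 1.24 ± 0.14, adjusted p = 0.0083 was made up of 0.58 with MEF2-VP16-ER (adjusted p = 0.0256) and -0.66 in controls (adjusted p = 0.31). Hs3st1 had an induction of 1.16 ± 0.13 at 1 h and 2.40 ± 0.13 at 2.5 h, and that at 1 h passed (adjusted p = 0.00248). Gask1b, a kinase-like protein of the Golgi, had a smaller induction of 0.30 ± 0.13 at 1 h, which did not pass (adjusted p = 0.581). At 2.5 h it was 1.36 ± 0.13, and the late minus early value of Gask1b was 1.06 ± 0.13, adjusted p = 0.0108. The other probe set of Gask1b was at 0.17.

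A larger group had an induction near 0 at 1 h and rose late. Mitf, the basic helix-loop-helix factor that directs melanocyte fate, had an intensity of 88.1, 64.4 and 81.3 at 1 h and 204, 178 and 283 at 2.5 h on the MEF2-VP16-ER arrays of replicates 1 to 3, against 78.4, 60.5 and 77.2 and 79.9, 57.8 and 78.4 on the control arrays. The 1 h arrays of both constructs overlapped, and all 3 MEF2-VP16-ER arrays at 2.5 h were above every other array. The value was 1.33 ± 0.13, adjusted p = 0.00513 (fold 2.51), and its other probe set was at 0.23 without passing. Man1a1, a Golgi mannosidase that trims N-linked glycans, was at 389, 395 and 264 at 1 h and 744, 663 and 529.9 at 2.5 h on the MEF2-VP16-ER arrays of replicates 1 to 3, against 419.7, 419.8 and 301 and 356, 250.2 and 214 on the control arrays. Its rise with MEF2-VP16-ER was 0.86 and its control change -0.47 (adjusted p = 0.587), for a difference of 1.33 ± 0.12, adjusted p = 0.00513. A second Man1a1 probe set was at 0.61 (adjusted p = 0.0631). Mat2b, the regulatory subunit of the enzyme that makes S-adenosylmethionine, went from 2027 ± 217 to 3819 ± 582 (SD, n = 3) with MEF2-VP16-ER, against 1867 ± 163 and 1795 ± 109 in controls (0.96 ± 0.10, adjusted p = 0.00667). Mlf1 was dimmer and went from 81.5 ± 13.2 to 168 ± 27.2 against 83.8 ± 6.1 and 79.6 ± 11 in controls (0.98 ± 0.11, adjusted p = 0.00834).

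The late rises included Sema6a, Cdh10 and Epha3 from the list of adhesion and guidance genes. Sema6a, a transmembrane semaphorin, was at 2111, 1925 and 2490 at 1 h and 3393, 3312 and 3983 at 2.5 h on the MEF2-VP16-ER arrays of replicates 1 to 3, against 2053, 1901 and 2367 and 2005, 1707 and 2225 on the control arrays. Its 1 h groups overlapped and only MEF2-VP16-ER at 2.5 h stood above them. Sema6a had a late minus early value of 0.80 ± 0.073, adjusted p = 0.00513, a second probe set also rose late (0.70, adjusted p = 0.00513), and 3 others were at 0.35, 0.14 and 0.059 and did not pass. Cdh10, a type II cadherin, gave 2168, 2329 and 2202 at 1 h and 3778, 3697 and 4114 at 2.5 h on the MEF2-VP16-ER arrays of replicates 1 to 3, against 2295, 2263 and 2301 and 2396, 1982 and 2162 on the control arrays, again with the MEF2-VP16-ER 2.5 h arrays alone above the rest (0.86 ± 0.10, adjusted p = 0.00835). Epha3, a receptor for ephrins, was at 443, 397 and 370.0 at 1 h and 639.7, 590.3 and 581 at 2.5 h on the MEF2-VP16-ER arrays of replicates 1 to 3, against 414, 438 and 367 and 388, 393 and 355 on the control arrays (0.66 ± 0.083, adjusted p = 0.0133). A second Epha3 probe set rose late by 0.68 (adjusted p = 0.0239) and the remaining probe set was at -0.096. Outside that list, Lrrc4c, a synaptic adhesion protein that binds netrin-G1, had 0.79 ± 0.13, adjusted p = 0.0466, and Ptprdl had 0.85 ± 0.084, adjusted p = 0.00513, with control arrays that were lower at 2.5 h than at 1 h without overlap.

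Of the 43 measured genes in the list of cadherins, protocadherins and axon guidance, Sema6a, Cdh10 and Epha3 rose late, 0 fell and 40 did not pass. The list's median was 0.15 with 37 of 43 positive, against a median of 0.027 with 59% positive over the 14217 named genes, of which 26 rose and 4 fell. The median change was 0.069 with MEF2-VP16-ER and -0.078 in controls. Pcdh17, a protocadherin, came nearest to passing among the others (0.60 ± 0.11, adjusted p = 0.0839), and its other probe sets were at 0.71 and 0.41. The list was written with earlier results of these data known, so its count is a description.

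Cpeb3, which binds cytoplasmic polyadenylation elements and controls translation at synapses, was at 552, 491 and 472 at 1 h and 939, 866 and 739 at 2.5 h on the MEF2-VP16-ER arrays of replicates 1 to 3, against 494, 523 and 445 and 513, 486 and 456 on the control arrays. The 1 h values of the constructs overlapped and the 2.5 h values did not (0.73 ± 0.086, adjusted p = 0.00835). Elavl2, a neuronal RNA-binding protein that stabilises transcripts, went from 2266 ± 95.6 to 3321 ± 286 with MEF2-VP16-ER, against 2274 ± 171 and 2170 ± 176 in controls (0.61 ± 0.079, adjusted p = 0.0156), and its other probe sets were at 0.60 and 0.43. Elavl2 was the 1 gene of 26 measured regulators of mRNA decay that passed, and of the rest Zfp36l2 came nearest (0.44 ± 0.11, adjusted p = 0.293; list median 0.069). Ppargc1a, the coactivator that drives mitochondrial biogenesis and a known MEF2 target in muscle, was at 553, 491 and 584 at 1 h and 739, 619 and 889.7 at 2.5 h on the MEF2-VP16-ER arrays of replicates 1 to 3, against 507, 494 and 533 and 445, 392 and 504 on the control arrays (0.64 ± 0.099, adjusted p = 0.0436). Its other probe sets were at 0.28 and 0.25, and it was the 1 gene of 39 measured muscle genes to pass (list median 0.031), Myl1 being at 0.36 ± 0.098 (adjusted p = 0.328).

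Numb, an adaptor that restrains Notch signalling, gave 481, 456 and 484 at 1 h and 761, 797 and 892 at 2.5 h on the MEF2-VP16-ER arrays of replicates 1 to 3, against 456, 461 and 442 and 493, 414 and 516 on the control arrays. Its 1 h groups lay together and its MEF2-VP16-ER arrays at 2.5 h were the highest (0.71 ± 0.10, adjusted p = 0.0377), while its other probe set was at 0.29. No other of the 24 measured Notch pathway genes passed (list median -0.0074; next Mfng, -0.19 ± 0.067). Rapgef5, an exchange factor for Rap GTPases, rose late by 0.80 ± 0.10, adjusted p = 0.015. Nr4a3, an orphan nuclear receptor and a fast activity-regulated gene, was at 7566, 8184 and 7029 at 1 h and 9172, 8982 and 8724 at 2.5 h on the MEF2-VP16-ER arrays of replicates 1 to 3, against 5939, 6030 and 5824 and 5119, 5176 and 4637 on the control arrays. Before ligand it was at 7040, 7169 and 6107 with MEF2-VP16-ER, against 5765, 6067 and 5582 in controls. This difference of 0.22 did not pass by limma (adjusted p = 0.16). The induction of Nr4a3 over 0 h was 0.13 ± 0.072 at 1 h and did not pass (adjusted p = 0.616 by limma). The control arrays were lower at 2.5 h and the MEF2-VP16-ER arrays higher, with no overlap in either, and the value was 0.49 ± 0.075, adjusted p = 0.0404. The change with MEF2-VP16-ER alone was 0.24 (adjusted p = 0.0842), whereas at the other 38 late rises it passed. Nr4a3 lost the call in all 12 fits that left out an array, with adjusted p up to 0.170, without MEF2-VP16-ER 1 h replicate 3, and values of 0.47 to 0.54. The other Nr4a3 probe sets were at 0.46 and 0.0089 and did not pass.

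The remaining 6 genes that rose late fell outside the rule for naming genes and were Dennd2c (0.68), the splicing regulator Mbnl1 (0.64), the Wnt pathway factor Lef1 (0.61), Uty (0.57), the stem cell factor gene Kitlg (0.56) and Glcci1 (0.54). Kitlg was also higher with MEF2-VP16-ER before ligand (0.40, adjusted p = 0.00887), the 1 probe set of 31042 that limma called there. The 11 rises without a single symbol lay between 0.52 and 1.51, and the smallest adjusted p of all, 0.00299, belonged to 1 of them (1.29 ± 0.10).

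**Figure D2:**
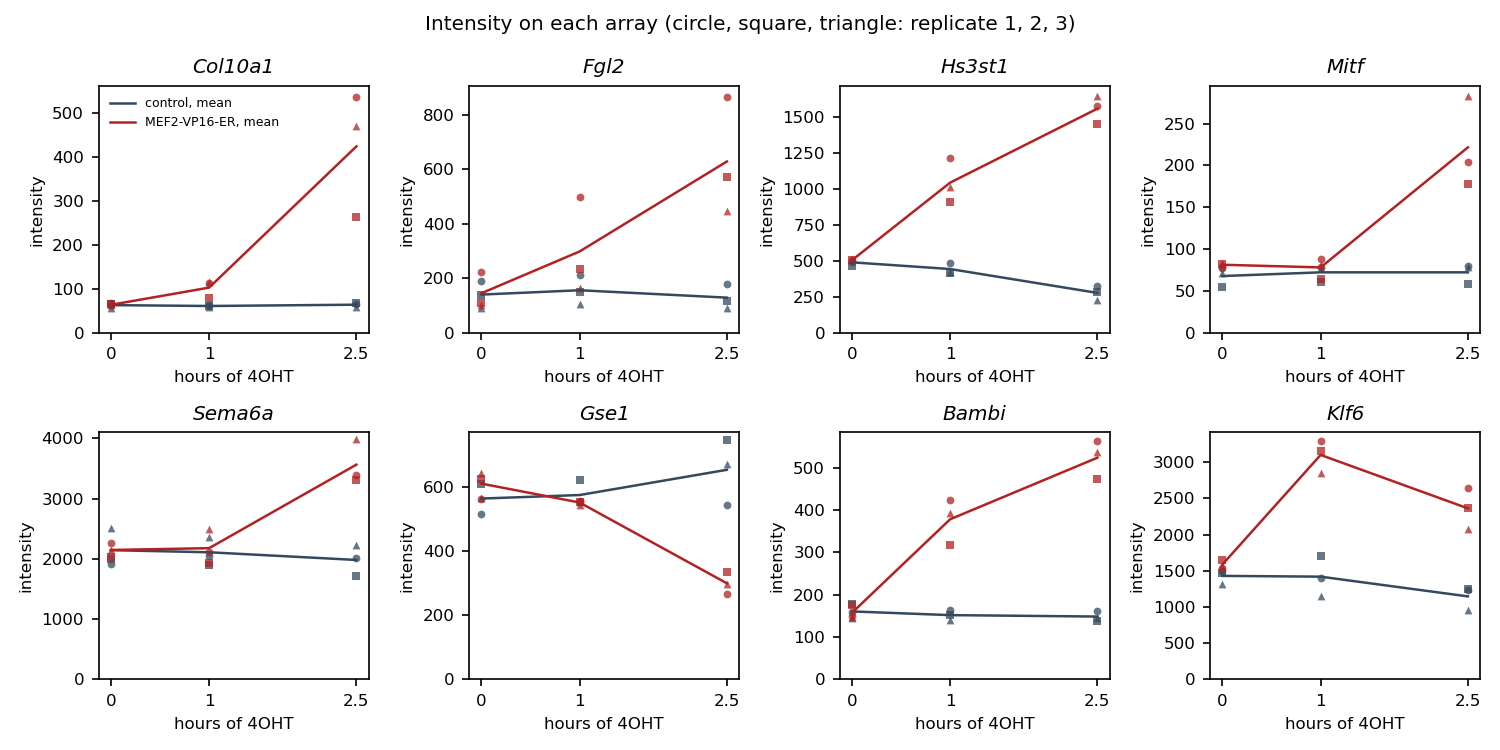
Intensity on a linear axis against hours of 4OHT for 8 genes, with each array as a point, replicates by symbol and lines through the means of 3 replicates in control (dark grey) and MEF2-VP16-ER (red) neurons. Mitf and Sema6a rise only between 1 h and 2.5 h, Hs3st1, Fgl2 and Col10a1 are higher at 1 h and rise further, Gse1 falls late, and Bambi and Klf6 are already high at 1 h. The inductions at 1 h of Hs3st1, Bambi and Klf6 passed, and those of Fgl2 and Col10a1 did not.

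Late falls were fewer. Gse1, whose product is found in histone deacetylase complexes, was at 558, 556 and 544 at 1 h and 266, 334 and 299 at 2.5 h on the MEF2-VP16-ER arrays of replicates 1 to 3, against 553, 622 and 553 and 545, 748 and 672 on the control arrays. The MEF2-VP16-ER arrays at 2.5 h were below all others and the 1 h groups were close. The value was -1.03 ± 0.11, adjusted p = 0.0076, with replicates between -1.11 and -0.97, and its other probe sets were at -0.73 and 0.13. Nin, which encodes the centrosome protein ninein, was at 328, 363 and 291 at 1 h and 152, 189 and 139 at 2.5 h on the MEF2-VP16-ER arrays of replicates 1 to 3, against 360.3, 341 and 310.2 and 337, 291 and 273 on the control arrays (-0.81 ± 0.12, adjusted p = 0.0302). Runx1t1, a transcriptional corepressor, was at 1010, 972 and 838 at 1 h and 463, 579.6 and 464 at 2.5 h on the MEF2-VP16-ER arrays of replicates 1 to 3, against 909, 1104 and 963 and 895, 984 and 884 on the control arrays. It fell late by 0.79 on the log2 scale (SE 0.10, adjusted p = 0.0193), and its 3 other probe sets were at -0.84, -0.75 and -0.70 without passing. Irf2bpl went from 3588 ± 386 to 2374 ± 331 with MEF2-VP16-ER, against 4460 ± 521 and 4275 ± 290 in controls (-0.54 ± 0.082, adjusted p = 0.0404). Its other probe sets were at -0.053 and -0.021. The 3 falls without a single symbol lay between -1.01 and -0.84.

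Since few genes fell late, those closest to the threshold are given as values. Sstr2, a somatostatin receptor, was at -0.78 ± 0.14 (adjusted p = 0.0756) and at -0.11 on its other probe set. Zfp667 was at -0.46 ± 0.08 (adjusted p = 0.0725) and the neuronal fate factor gene Fezf2 at -0.49 ± 0.087 (adjusted p = 0.0762). Tdrp was at -0.44 ± 0.081, Coro2a at -0.50 ± 0.098 and the chaperone gene Dnajb5 at -0.35 ± 0.069 (adjusted p = 0.0895 to 0.114). For Tdrp and Coro2a the control arrays at 2.5 h lay above those at 1 h without overlap. Other probe sets of these genes had smaller values, none of which passed. They were at -0.25 for Zfp667, -0.20, -0.12 and -0.095 for Tdrp, -0.33 for Coro2a, and -0.31 and -0.015 for Dnajb5.

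**Figure D3:**
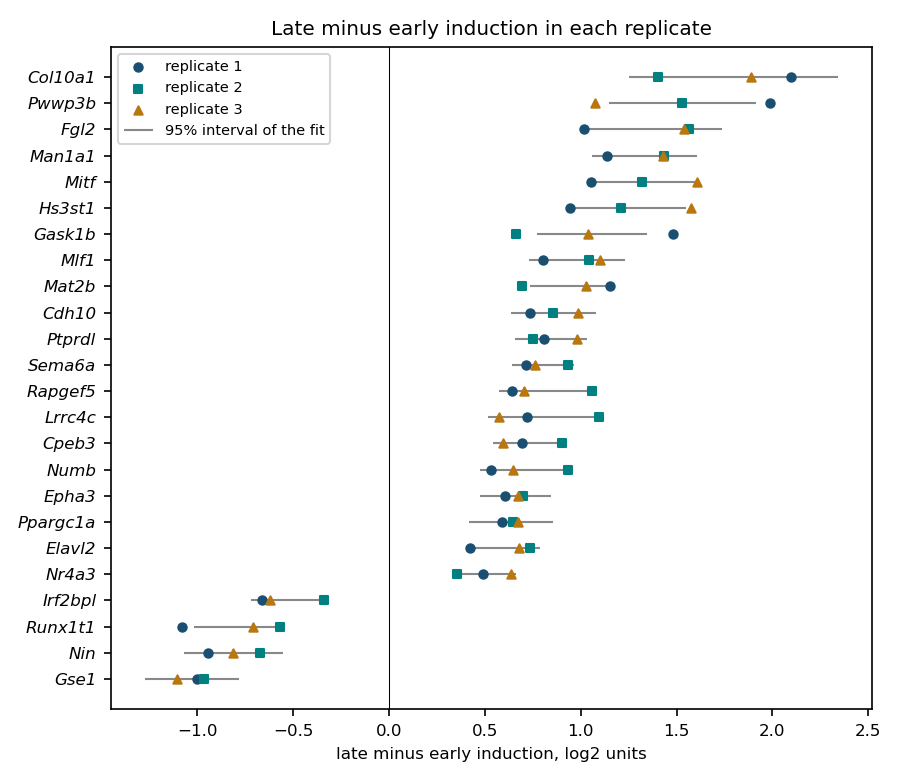
Late minus early induction in log2 units for the 24 named genes that rose or fell late, with each replicate's own difference of differences as a symbol and the 95% interval of the blocked fit as a grey line. Genes are ordered by estimate from Col10a1 (1.80) to Gse1 (-1.03), and the symbols of Gask1b spread from 0.66 to 1.48.

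Genes with the strongest induction over both times were compared as well, by the mean of their 1 h and 2.5 h inductions, which shares arrays with the late minus early value. With the block limma called 109 probe sets for this mean (0.351%), 63 higher (0.203%) and 46 lower (0.148%). Without the block it called 15 (0.0483%), and among the genes below only Hs3st1, Pwwp3b, Col10a1, Gask1b, Rgs2, Cited2, Bambi and Spry1 passed both ways. The largest were Hs3st1, Rgs2, Cited2, Pwwp3b, Bambi, Col10a1, Fgl2 and Rgs16. Of these Hs3st1, Pwwp3b, Col10a1 and Fgl2 are described above.

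Bambi, which dampens signalling by TGF-beta family receptors, was at 424, 318 and 393 at 1 h and 563, 473 and 537 at 2.5 h on the MEF2-VP16-ER arrays of replicates 1 to 3, against 163, 151 and 140.0 and 162, 137 and 145 on the control arrays. It was above every control array at 1 h and higher still at 2.5 h, where the MEF2-VP16-ER arrays did not overlap with 1 h. Its induction was 1.26 ± 0.14 at 1 h and 1.75 ± 0.14 at 2.5 h. The late minus early value was 0.49 ± 0.1 (adjusted p = 0.129, 95% interval 0.27 to 0.71), and the change within MEF2-VP16-ER neurons of 0.46 passed by itself (adjusted p = 0.0154). Rgs2, a regulator of G-protein signalling, was at 1493, 1557 and 2482 at 1 h and 2504, 2393 and 3386 at 2.5 h on the MEF2-VP16-ER arrays of replicates 1 to 3, against 658, 621 and 648 and 593, 544 and 581 on the control arrays. Replicate 3 was the highest at both times and the groups overlapped. Rgs2 had an induction of 1.31 ± 0.24 at 1 h and 2.07 ± 0.24 at 2.5 h and a late minus early value of 0.76 ± 0.18 (adjusted p = 0.24), positive in 3 of 3 replicates.

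Cited2, a transcriptional coregulator that competes for CBP and p300, was at 2530, 1876 and 2128 at 1 h and 2826, 2155 and 2429 at 2.5 h on the MEF2-VP16-ER arrays of replicates 1 to 3, against 937, 682 and 660.4 and 768, 663 and 546 on the control arrays. The MEF2-VP16-ER arrays were well above controls at both times and overlapped with each other. Its induction was 1.44 ± 0.14 at 1 h and 1.82 ± 0.14 at 2.5 h, with a difference of 0.38 ± 0.12 (95% interval 0.11 to 0.64, adjusted p = 0.454). Rgs16 had an induction of 1.23 ± 0.22 at 1 h and 1.50 ± 0.22 at 2.5 h, and the interval of its difference, -0.27 to 0.81, included both 0 and values above 0.5. Bdnf, the neurotrophin gene, was at 1538, 1416 and 968 at 1 h and 1844, 1636 and 1297 at 2.5 h on the MEF2-VP16-ER arrays of replicates 1 to 3, against 679, 546 and 294 and 509, 417 and 269.5 on the control arrays. Replicate 3 was the lowest of each group, and the difference was 0.59 ± 0.15 (adjusted p = 0.256), with 0.29 from MEF2-VP16-ER and -0.30 from controls. The other Bdnf probe set was at -0.014.

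For several fast genes the estimate at 1 h was already most of that at 2.5 h, although at 1 h limma passed only that of Klf6 (adjusted p = 0.00371). For Nr4a1, Spry1 and Nr4a2 the adjusted p at 1 h was 0.0928, 0.153 and 0.128. Klf6, a zinc finger factor, was at 3296, 3153 and 2859 at 1 h and 2642, 2371 and 2076 at 2.5 h on the MEF2-VP16-ER arrays of replicates 1 to 3, against 1402, 1699 and 1152 and 1238, 1243 and 952 on the control arrays. From 1 h to 2.5 h the change was -0.39 with MEF2-VP16-ER and -0.30 in controls, and the difference was -0.097 ± 0.12 (95% interval -0.36 to 0.16). Nr4a1, an orphan nuclear receptor, had an induction of 0.86 ± 0.15 at 1 h and 1.11 ± 0.15 at 2.5 h and a difference of 0.25 ± 0.16 (95% interval -0.096 to 0.60). Spry1, an inhibitor of Ras-MAPK signalling, had 1.10 ± 0.21 at 1 h and 1.28 ± 0.21 at 2.5 h (interval of the difference -0.32 to 0.67), and Nr4a2 had 0.71 ± 0.13 at 1 h and 1.00 ± 0.13 at 2.5 h (interval 0.0066 to 0.59), with a second Nr4a2 probe set at -0.18. None of these differences passed, which does not show that the induction stayed constant. Among decreases, the mean induction was most negative for Txnip, a thioredoxin-binding protein, at -1.33 ± 0.22 at 1 h and -1.13 ± 0.22 at 2.5 h. For Klf10 it was -0.81 ± 0.16 at 1 h and -0.79 ± 0.16 at 2.5 h, with a difference of 0.023 ± 0.16 (95% interval -0.32 to 0.37), whereas Sstr2 had -0.52 ± 0.14 at 1 h and -1.30 ± 0.14 at 2.5 h and Inhbb, an activin subunit, -0.61 ± 0.13 at 1 h and -1.21 ± 0.13 at 2.5 h. The difference for Inhbb was -0.60 ± 0.14 (adjusted p = 0.197). At 1 h alone the decreases of Txnip, Klf10, Sstr2 and Inhbb did not pass by limma (adjusted p = 0.0634 to 0.502).

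**Figure D4:**
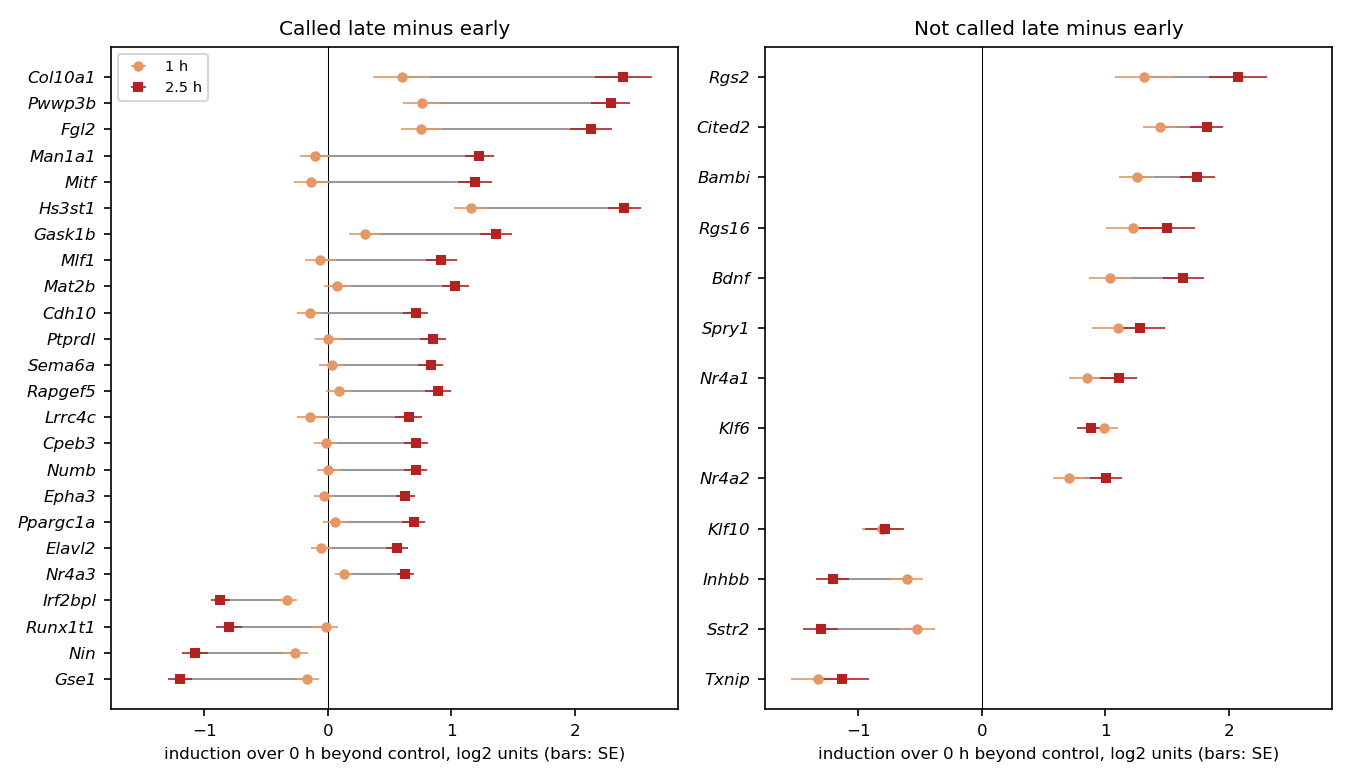
Induction over 0 h beyond control neurons at 1 h (orange circles) and 2.5 h (red squares), in log2 units with SE bars, from 18 arrays with the replicate block. The left panel shows the 24 named genes that rose or fell late, most with a 1 h value near 0, and the right panel shows 13 genes of strong induction or decrease whose values at both times lie away from 0 and whose difference did not pass.

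None of the MEF2 genes or best-known activity genes passed except Nr4a3. Mef2a had 0.50 ± 0.098, adjusted p = 0.11, with its 4 probe sets between 0.32 and 0.50, and its change within MEF2-VP16-ER neurons was 0.43 (adjusted p = 0.0199). Mef2c was at 0.26 ± 0.09 and Mef2d at 0.098 ± 0.10. All 8 measured MEF2 and class IIa deacetylase genes were positive with a median of 0.22, and 0 passed. Whether probes for these genes also detect the introduced MEF2 was not tested. Arc was at 0.039 ± 0.14, Homer1 at 0.13 ± 0.086, Fos at -0.19 ± 0.13, Fosb at -0.34 ± 0.32 and Egr1 at -0.42 ± 0.13, with adjusted p = 0.442 to 0.976. A second and brighter Fos probe set pointed the other way, at 0.40 ± 0.33, with changes of -0.54 with MEF2-VP16-ER and -0.94 in controls. Egr1 had changes of -0.85 with MEF2-VP16-ER and -0.43 in controls, and Fosb of -0.91 and -0.57, so that the values were negative in both.

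List medians use the brightest probe set of each gene, and named values the probe set of smallest p. Other pathway lists are given by their counts, beside 26 late rises and 4 late falls over all 14217 named genes. Of the immediate early transcription factors (27 measured, 12 positive, median -0.035) only Nr4a3 rose late and 0 fell, Srf being next at -0.28 ± 0.084. The list's median change was -0.14 with MEF2-VP16-ER and -0.15 in controls. No member passed in either direction among activity-regulated effectors (27 measured, 18 positive, median 0.13). There Scg2 had the smallest p (0.45 ± 0.085, adjusted p = 0.103) and Inhba the largest value (1.04). The same count of 0 held for the neuronal MEF2 targets from the literature (10 measured, 7 positive, median 0.19) and for MAP kinase phosphatases and Ras-MAPK feedback genes (12 measured, 8 positive, median 0.069), of which Dusp14 was at 0.49 ± 0.11. Among TGF-beta, activin and BMP genes (34 measured, 20 positive, median 0.031) Bambi came nearest by p. Inhba, at 1.04, again had the largest value and did not pass. Kcna4, an A-type potassium channel, was at 0.78 ± 0.13, just outside the threshold (adjusted p = 0.0502), with 0.30 from MEF2-VP16-ER and -0.49 from controls, while voltage-gated potassium channels as a list had a median of 0.0027 over 28 genes.

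Hspb1, a small heat shock protein, was at 558, 343 and 189 at 1 h and 1118, 654 and 571 at 2.5 h on the MEF2-VP16-ER arrays of replicates 1 to 3, against 382, 263 and 102 and 327, 192 and 135 on the control arrays. Replicates differed more than the constructs did at 1 h, and within each replicate the 2.5 h array with MEF2-VP16-ER was the highest. Its value of 1.23 ± 0.22 did not pass (adjusted p = 0.0762), nor did any other of the 23 heat shock and unfolded protein response genes (median 0.051). No gene passed among glutamate receptors and scaffolds (33 measured, 22 positive, median 0.039), where Grm8 was at -0.81 ± 0.18, or among cholesterol genes (20 measured, 6 positive, median -0.11), where Fdft1 was at -0.26 ± 0.10. Estrogen receptor targets (17 measured, 8 positive, median -0.025; Cxcl12 0.40 ± 0.11) and NF-kappaB and interferon genes (32 measured, 17 positive, median 0.0017; Irf7 0.36 ± 0.095) likewise had 0 calls. The 0 calls in these lists, the MEF2 family list and the marker lists are at limma's adjusted p under 0.05, where 2294 of all probe sets had unadjusted p under 0.05.

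No marker of a cell type passed for late minus early. Neurod2, a transcription factor of excitatory neurons, fell within MEF2-VP16-ER neurons (-0.41, adjusted p = 0.0314), and its mean induction was -0.52 (adjusted p = 0.00751 with the block and 0.431 without it). The lists of neuron (median 0.064), excitatory neuron (median 0.098), inhibitory neuron (median 0.052), astrocyte (median 0.069), microglia (median 0.0050), fibroblast (median -0.014) and endothelial markers (median -0.042) had medians of 0.10 or less in size, and the 5 measured oligodendrocyte markers had a median of -0.14. Taken at each gene's probe set of smallest p, the nearest in each list were Nefl (0.20 ± 0.092), Neurod2 (-0.45 ± 0.10), Sst (0.22 ± 0.14), Slc1a3 (0.38 ± 0.13), Sox10 (-0.49 ± 0.12), Aif1 (-0.14 ± 0.082), Flt1 (-0.15 ± 0.091) and Col1a1 (0.18 ± 0.11). The summed intensity of the 5 excitatory markers was 11418 to 12985 at 1 h and 8583 to 10717 at 2.5 h with MEF2-VP16-ER, against 12237 to 14533 and 11227 to 13365 in controls, so that the lowest sums were with MEF2-VP16-ER at 2.5 h. Neurod6, the brightest of the 5 with 5032 to 9468, weighs most in that sum and had a late minus early value of -0.32 (adjusted p = 0.606), whereas Slc17a6 (0.17), Slc17a7 (0.098) and Camk2a (0.29) were positive. Neuron marker sums were 36972 to 38721 and 37950 to 39118 with MEF2-VP16-ER and 35856 to 39114 and 36037 to 37187 in controls. In such bulk samples fewer cells of a type and less RNA per cell cannot be told apart, and the part of cell composition in the late changes was not tested.

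**Figure D5:**
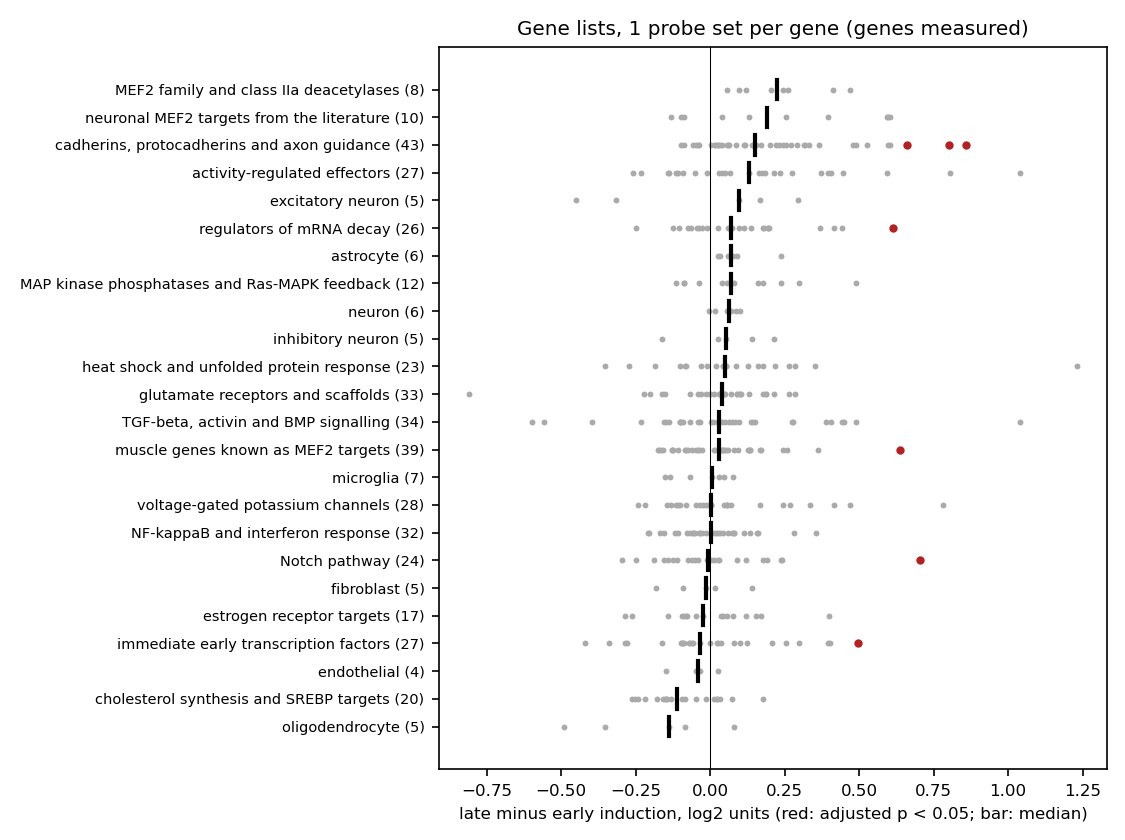
Late minus early induction in log2 units for each measured gene of 24 lists, with the number measured in brackets and 1 probe set of highest intensity per gene. Points are genes, red where adjusted p is under 0.05, and black bars are list medians, which lie between -0.14 and 0.22.

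These calls rest on the replicate block. Without it limma called 1 probe set, the rise of 1.29 without a gene symbol (adjusted p = 0.00435, 0.00322% of probe sets), and none of the 24 named genes passed, Cdh10 coming nearest (adjusted p = 0.0511). With the block and a single array left out, Pwwp3b, Man1a1, Mitf, Hs3st1, Mlf1, Mat2b, Ptprdl, Sema6a, Cpeb3 and Gse1 kept the call in 12 of 12 fits, Fgl2 and Cdh10 in 11, Gask1b in 10, Rapgef5 in 7, Epha3 and Runx1t1 in 6, Elavl2 in 5, Nin in 3, Lrrc4c, Numb and Ppargc1a in 2 and Irf2bpl in 1. With a random block in place of the fixed one, Fgl2 (adjusted p = 0.431), Irf2bpl (0.254), Ppargc1a (0.187), Rapgef5 (0.0726), Nin (0.0614) and Lrrc4c (0.053) lost the call. Lrrc4c, Ppargc1a and Nr4a3 also lost it with quantile normalization (adjusted p = 0.0656, 0.0656 and 0.154), Col10a1, Lrrc4c, Nin and Ppargc1a with a pseudocount of 64 (0.0509 to 0.0685), and Irf2bpl and Nr4a3 with a pseudocount of 1 (0.0536 and 0.0622). The count of calls was 18 without control 1 h replicate 2, 22 without control 2.5 h replicate 3 and 24 to 30 without any of control 1 h replicate 1, control 2.5 h replicate 1, control 2.5 h replicate 2, MEF2-VP16-ER 1 h replicate 2, MEF2-VP16-ER 1 h replicate 3 or MEF2-VP16-ER 2.5 h replicate 3. In the opposite direction, 70 probe sets passed when MEF2-VP16-ER 2.5 h replicate 1 was left out.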

How the data were processed

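RNA from rat hippocampal neurons was measured on 18 Affymetrix arrays, of which the 12 at 1 h and 2.5 h of 4OHT entered the main comparison and the other 6, at 0 h, gave the inductions. The deposited values are probe set intensities on a linear scale, normalized by the authors before deposit by a method not given in the sources used here, so the effect of that step on the differences could not be checked. From them log2(intensity + 16) was computed, 57 control probe sets were left out and 31042 were tested with no filter on low values.

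The contrast was fitted with limma 3.58.1 in R 4.3.3, with 4 groups, the replicate number as a fixed block, 6 residual and 4.44 prior degrees of freedom, and Benjamini-Hochberg adjustment over all 31042 probe sets at 0.05. Depth has no meaning for arrays, and the number of arrays limits the precision. Same-numbered arrays deviated together from their group means: all 18 pairs among the 12 arrays correlated above 0.1 (lowest 0.238), and each of the 12 arrays correlated best with its own number. Over all 18 arrays 44 of 45 pairs did (lowest 0.0677), so the mean induction over 0 h is also given without the block. The separate inductions at 1 h and 2.5 h come from the same fit of 18 arrays. They are given only with the block, so their calls rest on it.

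Symbols came from the platform annotation, with 1 symbol for 20826 probe sets, several for 436 and none for 9780, and 20758 matched a RefSeq gene of the same symbol. Named genes were, among those past the threshold, up to 16 of the largest estimates in each direction, the 6 nearest to it where few passed, the 8 highest and 4 lowest mean inductions, the called members of each of 24 gene lists and the nearest uncalled member, and a fixed set of MEF2 and activity genes. Each is given by its probe set of smallest p. The members and lists were chosen with earlier results of these data known. Promoter windows are RefSeq's for build GRCr8. Figures were drawn with matplotlib 3.10.9 under Python 3.11.15, and the fits were tested on simulated data. Alternatives were the fit without the block, with a random block and with all 18 arrays, quantile normalization, median centring, other pseudocounts, a filter on level, 1 probe set per gene, limma's trend and robust options, and each array or replicate number left out in turn.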

Additional observations from a re-analysis of the deposited data

Results flagged for a closer look

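The change from 1 h to 2.5 h differed between the constructs by limma's interaction test with the replicate block for the 24 named genes that passed, and that difference is why each stands here. In log2 units the late minus early values of the 20 rises were Col10a1 (1.80), Pwwp3b (1.53), Fgl2 (1.37), Man1a1 (1.33), Mitf (1.33), Hs3st1 (1.24), Gask1b (1.06), Mlf1 (0.98), Mat2b (0.96), Cdh10 (0.86), Ptprdl (0.85), Sema6a (0.80), Rapgef5 (0.80), Lrrc4c (0.79), Cpeb3 (0.73), Numb (0.71), Epha3 (0.66), Ppargc1a (0.64), Elavl2 (0.61) and Nr4a3 (0.49). Those of the 4 falls were Irf2bpl (-0.54), Runx1t1 (-0.79), Nin (-0.81) and Gse1 (-1.03). Without the block none of these 24 passed.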

How the results depend on the processing

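The number of probe sets that passed changed with the block, with the arrays used and with limma's options. The numbers pair the arrays, and without the replicate block the count for late minus early fell from 46 to 1, that for the change within MEF2-VP16-ER neurons from 239 to 45 and that for the mean induction from 109 to 15, while no control change passed either way. With a random block the counts were 28, 139 and 43. With all 18 arrays they were 124 for late minus early, 399 within MEF2-VP16-ER neurons and 3 within controls, and with limma's trend and robust options late minus early gave 78. Pseudocounts of 1 and 64, the filter on level, 1 probe set per gene, median centring and quantile normalization gave 37 to 52. Leaving out arrays or a replicate number gave 0 to 70 calls for late minus early, 25 to 379 within MEF2-VP16-ER neurons, 0 in controls and 15 to 121 for the mean induction. Without replicate 1, 2 or 3 altogether the late minus early counts were 7, 1 and 0, from 8 arrays each. The cause of these shifts was not tested.

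No value of the 24 named genes that passed changed sign in any setting. Among the 47 named genes that did not pass, 16 of 1158 values changed sign. Klf10 was at -0.034 with quantile normalization and at -0.14 to 0.23 with arrays left out, Arc at -0.19 to 0.24, Fosb at -0.57 to 0.013 and Mef2d at -0.0080 to 0.22, and 26 of the 1158 passed, among them Kcna4 with all 18 arrays (adjusted p = 0.00757 by limma). Probe sets with low intensity have compressed differences on this scale.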
